A study of Mus musculus with 28 samples.

Results

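Liver RNA was measured in male CD-1 mice, an outbred laboratory stock that carries its own mouse drug receptors, after 7 days of feeding. Of the 8 animals, 4 received 1500 ppm phenobarbital in the diet and 4 received 0 ppm (controls). They are all the CD-1 animals among the 28 animals of the series and were chosen by the strain, dose and time in the labels, with 1 one-colour Agilent array per animal. The other arrays serve only for a comparison at the end. They are 7 hCAR/hPXR mice at 1000 ppm and 7 at 0 ppm for 7 days, and 3 C3H/HeNCrlCrlj mice at 500 ppm and 3 at 0 ppm for 27 weeks, all 6 of them after 90 mg/kg diethylnitrosamine, and all of these animals were male too. In CD-1 the 4 phenobarbital arrays lay on 1 slide and the 4 control arrays on another, so that phenobarbital and slide cannot be told apart in any result below. The RNA is total RNA of liver, a bulk sample in which fewer cells of a type and less RNA per cell cannot be told apart.

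Phenobarbital is the standard inducer of hepatic drug metabolism in rodents. It acts on the constitutive androstane receptor CAR, encoded by Nr1i3, without binding it: blocked growth factor signalling releases CAR from the cytoplasm, and in the nucleus CAR pairs with the retinoid X receptor RXRA and binds elements near genes for cytochrome P450 enzymes, conjugating enzymes and transporters. The pregnane X receptor PXR, encoded by Nr1i2, shares many of these target genes. In mouse liver the response is known for enlarged hepatocytes, growth of the smooth endoplasmic reticulum and, on long exposure, tumour promotion that needs CAR.

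The value of a gene is the log2 of its processed array signal minus the 75th percentile of that array, called its level, so that a level of 0 marks the 75th percentile. A difference is the mean level in phenobarbital animals minus the mean level in controls on the log2 scale, with its standard error (SE). A gene was tested when it was well above background on every array of 1 or both groups, and rose or fell means an adjusted p under 0.05 by limma over all 23827 tested genes and transcripts. By that rule 1900 passed (7.97%), of which 440 were higher (1.85%) and 1460 lower (6.13%) in phenobarbital animals, and the median difference of all tested was -0.04. A change of at least 2-fold was seen in 1838 of them (7.71%). Genes with a symbol numbered 13285, of which 905 passed (6.81%), 225 higher (1.69%) and 680 lower (5.12%), and among the 10542 transcripts without one 215 were higher (2.04%) and 780 lower (7.4%). For 4428 (18.6%) the groups did not overlap, 1580 of them with the phenobarbital animals higher (6.63%) and 2848 with them lower (12.0%). Of the tested genes 17095 were well above background on all arrays of both groups, and 142 of these rose and 926 fell. Another 5427 were so in phenobarbital animals alone, of which 298 rose and none fell, and 1305 in controls alone, of which none rose and 534 fell. A gene that was bright enough in 1 group alone could hardly be called in the other direction, so counts and medians over such members describe them and no more, and they are given below for the lists in which they weigh. Where no array of the dimmer group was well above background, a fold is a lower bound, written "at least". Where a call is lost without certain animals, each of them was left out alone, and the values beside them are the differences then found.

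The arrays differed in brightness along with the groups. The 75th percentile of the log2 signal was 7.02, 6.50, 6.15 and 6.27 in phenobarbital animals 1 to 4 against 5.23, 6.16, 5.92 and 6.11 in control animals 1 to 4. Control animal 1 was the dimmest and phenobarbital animal 1 the brightest, and they lay at the ends of the first principal component, which held 56.8% of the variance (95.8, 51.0, 18.4 and 46.6 in phenobarbital animals against -144, -2.94, -52.0 and -12.4 in control animals). Probes well above background made up 62.2% to 70.6% per array in phenobarbital animals and 46.2% to 70.5% in controls. The file headers mark the variation of replicate spots as out of range on every CD-1 array and in range on most others. The median coefficient of variation of these spots was 17.7% to 21.2% in phenobarbital animals and 11% to 13.1% in controls. Since these values move with the groups, the results are also given with array brightness as a covariate and without the 2 end arrays (control animal 1 and phenobarbital animal 1), 2 settings chosen after seeing the data. The part of array brightness in the results was not tested further. Genes of hepatocyte secreted proteins, which define the labelled tissue, were all detected: 23 of 23 were well above background on every CD-1 array, with a summed level on the linear scale of 10120 to 18140 in phenobarbital animals and 15270 to 26370 in controls.

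**Figure D1:**
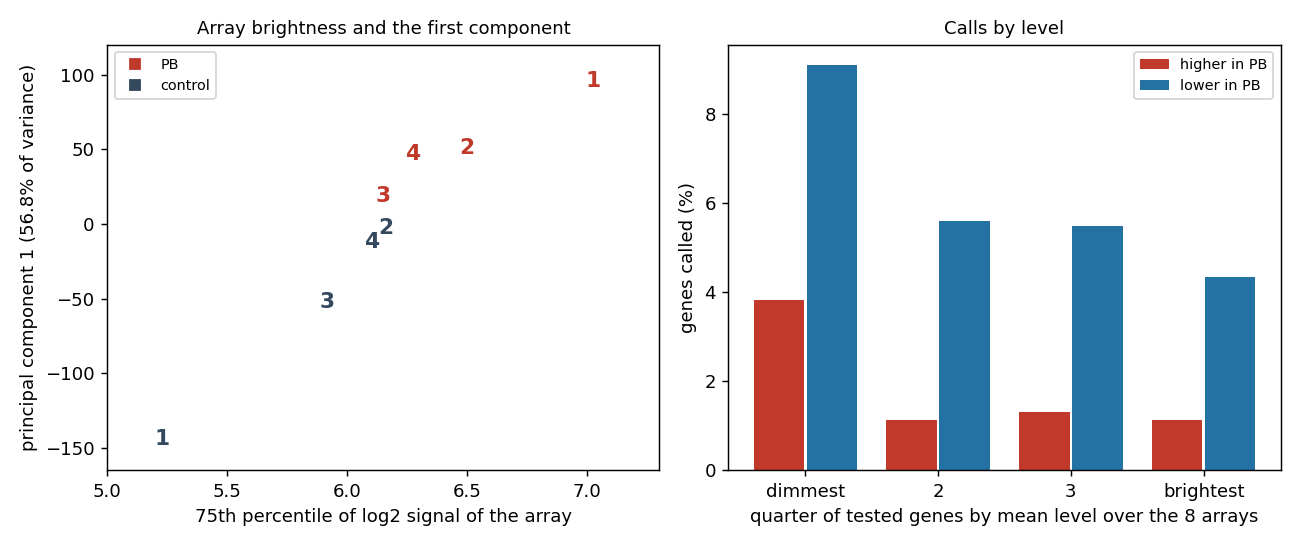
Left, first principal component of the 8 arrays against the 75th percentile of their log2 signal; each number is 1 animal (PB, phenobarbital). Right, share of tested genes called higher or lower in phenobarbital animals, in %, in 4 equal bins of the mean level over the 8 arrays, from 3.83% higher and 9.10% lower in the dimmest to 1.12% higher and 4.33% lower in the brightest.

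Several of the largest rises lay next to each other in the genome. On chromosome 7 the 4 consecutive tested genes Cyp2b10, Cyp2b13, Cyp2b9 and Cyp2a4 rose, and on chromosome 19 Cyp2c55 rose most within the Cyp2c family, in which the neighbours Cyp2c37, Cyp2c54 and Cyp2c50 rose together. The promoters of these genes that RefSeq's table holds (GRCm38.p6, 250 bases before to 50 bases after the start, forward strand, 5′ to 3′) are shown because they let the reader compare neighbours that moved together. Their positions are chr7:25897408-25897707 for Cyp2b10, chr7:26061245-26061544 for Cyp2b13, chr7:26173159-26173458 for Cyp2b9, chr7:26306942-26307241 for Cyp2a4, chr19:39006769-39007068 for Cyp2c55, chr19:39992174-39992473 for Cyp2c37 and chr19:40089429-40089728 for Cyp2c50. Capitals mark matches to TATAAA, the letters of a TATA box, and to AGNTCA, the half-site that nuclear receptors such as CAR and RXRA bind, on either strand.
Cyp2b10: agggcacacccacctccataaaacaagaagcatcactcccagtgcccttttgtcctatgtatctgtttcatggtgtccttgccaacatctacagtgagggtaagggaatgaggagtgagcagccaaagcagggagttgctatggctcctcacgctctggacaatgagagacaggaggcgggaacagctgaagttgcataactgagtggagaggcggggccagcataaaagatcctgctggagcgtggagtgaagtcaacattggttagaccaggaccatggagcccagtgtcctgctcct
Cyp2b13: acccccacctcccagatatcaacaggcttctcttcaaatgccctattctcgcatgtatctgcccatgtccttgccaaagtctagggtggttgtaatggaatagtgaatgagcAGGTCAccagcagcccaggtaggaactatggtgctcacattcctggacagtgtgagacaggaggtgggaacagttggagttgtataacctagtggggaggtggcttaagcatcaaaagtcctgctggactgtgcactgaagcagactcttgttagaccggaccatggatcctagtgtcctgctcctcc
Cyp2b9: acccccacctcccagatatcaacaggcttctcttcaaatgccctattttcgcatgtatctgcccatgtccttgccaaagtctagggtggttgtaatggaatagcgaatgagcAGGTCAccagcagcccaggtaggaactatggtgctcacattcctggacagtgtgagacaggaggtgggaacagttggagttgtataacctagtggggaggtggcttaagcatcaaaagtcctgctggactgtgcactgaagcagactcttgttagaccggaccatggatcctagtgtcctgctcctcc
Cyp2a4: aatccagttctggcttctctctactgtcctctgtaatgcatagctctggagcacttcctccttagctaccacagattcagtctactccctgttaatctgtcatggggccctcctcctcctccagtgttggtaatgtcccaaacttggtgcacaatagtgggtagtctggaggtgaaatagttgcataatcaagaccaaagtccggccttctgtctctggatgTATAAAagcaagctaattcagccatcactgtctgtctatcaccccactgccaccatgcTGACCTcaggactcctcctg
Cyp2c55: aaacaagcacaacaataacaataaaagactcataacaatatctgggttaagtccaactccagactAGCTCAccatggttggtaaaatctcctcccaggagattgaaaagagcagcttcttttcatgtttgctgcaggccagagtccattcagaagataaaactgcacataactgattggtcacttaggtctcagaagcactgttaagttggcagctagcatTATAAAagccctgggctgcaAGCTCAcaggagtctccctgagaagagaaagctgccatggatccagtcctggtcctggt
Cyp2c37: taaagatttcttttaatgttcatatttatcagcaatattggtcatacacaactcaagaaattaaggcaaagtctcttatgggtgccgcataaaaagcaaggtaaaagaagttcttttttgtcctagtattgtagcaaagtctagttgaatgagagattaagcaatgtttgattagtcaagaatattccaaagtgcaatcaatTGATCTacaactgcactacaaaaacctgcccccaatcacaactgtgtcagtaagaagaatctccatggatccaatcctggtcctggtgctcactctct
Cyp2c50: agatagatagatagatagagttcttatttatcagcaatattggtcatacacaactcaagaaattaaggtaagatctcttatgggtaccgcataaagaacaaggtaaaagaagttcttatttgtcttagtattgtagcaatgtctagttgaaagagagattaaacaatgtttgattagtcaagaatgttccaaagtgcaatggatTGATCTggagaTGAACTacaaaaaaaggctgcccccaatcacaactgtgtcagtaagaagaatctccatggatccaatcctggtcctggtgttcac

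The windows of Cyp2b13 and Cyp2b9 were identical at 298 of 300 aligned positions (99.3%), while that of Cyp2b10 shared 71.7% with each of them. Cyp2a4, although it stands beside them, shared 46.3% to 48.3% with the Cyp2b windows. Cyp2c37 and Cyp2c50 shared 86.6%, and Cyp2c55 shared 53.02% to 53.56% with them. The half-site letters began at position -138 from the start in both Cyp2b13 and Cyp2b9, at -185 and -9 in Cyp2c55, and on the opposite strand at 31 in Cyp2a4, at -48 in Cyp2c37 and at -46 and -35 in Cyp2c50. TATAAA began at -28 in Cyp2a4 and -29 in Cyp2c55. Cyp2b10 held neither. Over 27025 mouse promoters of the same length, 46.5% held AGNTCA and 14.2% held TATAAA on either strand. A direct repeat of half-sites 4 bases apart, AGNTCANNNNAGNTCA, the arrangement known for CAR and RXRA dimers, was in none of the 7 windows and in 36 (0.133%) of all promoters. These matches describe letters in the windows, and the enhancers known to carry the phenobarbital response lie farther upstream.

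The genes of CAR and PXR themselves did not pass the test. Nr1i3 had levels of 1.46, 0.87, 0.86 and 0.95 in phenobarbital animals 1 to 4 against 1.73, 1.34, 1.44 and 1.39 in control animals 1 to 4, a difference of -0.44 ± 0.26 (SE, n = 4 per group, limma adjusted p = 0.289). Phenobarbital animal 1 lay within the control range and the other 3 below it, and the second Nr1i3 probe differed by -1.25. Nr1i2 differed by -0.08 ± 0.27 (limma adjusted p = 0.873), with overlapping groups. Rxra, the shared partner of both receptors, fell, with -1.31, -0.99, -0.61 and -0.96 in phenobarbital animals against 0.27, -0.31, 0.11 and -0.12 in control animals (-0.96 ± 0.27, limma adjusted p = 0.0468). Its groups did not overlap, but the call was lost when any of control animals 1, 3 and 4 or phenobarbital animals 1, 2 and 4 (-0.84 to -0.99) was left out and with brightness as a covariate (-0.58, limma adjusted p = 0.226). Among 31 tested nuclear receptors and their cofactors none rose and 3 fell, with a median of -0.44 against -0.04 over all tested genes. The other members that fell were Ppara, the fatty acid sensor, which is described with the lipid genes, and Ncoa1, a coactivator (-1.12 ± 0.32, limma adjusted p = 0.0496), a call lost without control animals 1, 2, 3 and 4 or phenobarbital animals 1, 2 and 4 (-0.9 to -1.28). The other Ncoa1 probes gave 0.57 and -0.79.

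P450 genes known to respond to CAR or PXR made up the list with the most rises. Of 23 tested members, 12 rose and none fell, against 1.85% higher and 6.13% lower over all tested genes, and their median difference was 1.41. Of the 12, 5 (Cyp2c55, Cyp2c65, Cyp3a44, Cyp2b13 and Cyp2b9) were bright enough in phenobarbital animals alone. Of the 16 members well above background on all arrays of both groups 7 rose and none fell (median 0.97). The count over all tested members was 13 of 23 with brightness as a covariate and 16 of 24 without the 2 end arrays. Cyp2b10, the standard marker gene of CAR activation, had levels of 7.57, 8.2, 8.43 and 8.11 in phenobarbital animals against 1.91, -0.21, 1.59 and 2.39 in control animals. It was high in every phenobarbital animal and low in every control, a 101-fold difference (6.66 ± 0.47, limma adjusted p = 1.69e-05). Control animal 2 had the lowest level of its group.

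Along chromosome 7, Cyp2b10 was followed by 3 genes that also rose. Cyp2b13, a P450 gene expressed mainly in female mouse liver, had 0.27, 0.62, 0.28 and 0.59 in phenobarbital animals against -3.95, -2.38, -2.22 and -2.4 in control animals (3.18 ± 0.37, limma adjusted p = 0.000265). It was well above background on 2 of 4 control arrays, and control animal 1 was lowest. Cyp2b9, also mainly female in mice, had 1.76, 2.62, 3.22 and 3.0 in phenobarbital animals against -2.43, -1.97, -0.94 and -1.22 in control animals, 19.6-fold (4.29 ± 0.4, limma adjusted p = 6.74e-05). Cyp2a4, a steroid 15-alpha-hydroxylase of female-biased expression, had 4.74, 5.95, 6.61 and 5.84 in phenobarbital animals against 1.97, 3.22, 3.37 and 4.19 in control animals (2.6 ± 0.47, limma adjusted p = 0.00511), and did not pass with brightness as a covariate (2.48, 0.08). None of these 4 genes had overlapping groups. Past Cyp2a4 the differences were smaller and mixed: 1.02 ± 0.44 for Cyp2b23 (limma adjusted p = 0.162), 1.41 ± 0.63 for Cyp2a22 (0.174), -1.13 ± 0.51 for Cyp2a12 (0.177) and -0.73 ± 0.28 for Cyp2f2 (0.121). Cyp2t4, at the far end and added after its values were seen, fell (-1.22 ± 0.29, limma adjusted p = 0.0245). Cyp2s1, Cyp2b19 and Cyp2g1 were not tested, and Cyp2a5 was not matched by symbol. Whether the probes tell the near-identical members of these families apart was not tested, because probe sequences were not used here.

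The Cyp2c family on chromosome 19 split. Of 13 tested genes 6 rose and 2 fell. Cyp2c55, an arachidonic acid and xenobiotic hydroxylase, had 1.21, 2.35, 2.52 and 2.67 in phenobarbital animals against -3.8, -4.43, -4.34 and -2.66 in control animals, at least 29.6-fold (5.99 ± 0.43, limma adjusted p = 1.69e-05), and no control array was well above background. Its neighbour Cyp2c65 rose at least 3.49-fold (2.13 ± 0.35, limma adjusted p = 0.00275). Further along, Cyp2c39 rose (2.56 ± 0.37), as did the run of Cyp2c37 (2.13 ± 0.3), Cyp2c54 (2.73 ± 0.31) and Cyp2c50 (2.57 ± 0.3), with limma adjusted p between 0.000225 and 0.00112. Cyp2c54 is the clearest of them, with 7.59, 7.82, 8.03 and 7.83 in phenobarbital animals against 5.8, 4.42, 5.03 and 5.08 in control animals, and its other 2 probes gave 2.70 and 2.16. Between these risers stood 2 genes that fell. Cyp2c67 had 4.1, 4.34, 4.99 and 4.09 in phenobarbital animals against 6.64, 5.34, 5.87 and 5.61 in control animals (-1.48 ± 0.33, limma adjusted p = 0.0175), and Cyp2c68 differed by -1.19 ± 0.27 (limma adjusted p = 0.0184). Both groups were apart in each. Cyp2c29, known as a CAR target in mouse liver, gave 0.87 ± 0.33 (limma adjusted p = 0.117): phenobarbital animals had 6.08, 6.68, 7.2 and 6.78 against 6.35, 5.15, 6.02 and 5.73 in control animals, and the groups overlapped through animal 1 of each. Cyp2c65, Cyp2c67 and Cyp2c68 were added after their values were seen.

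**Figure D2:**
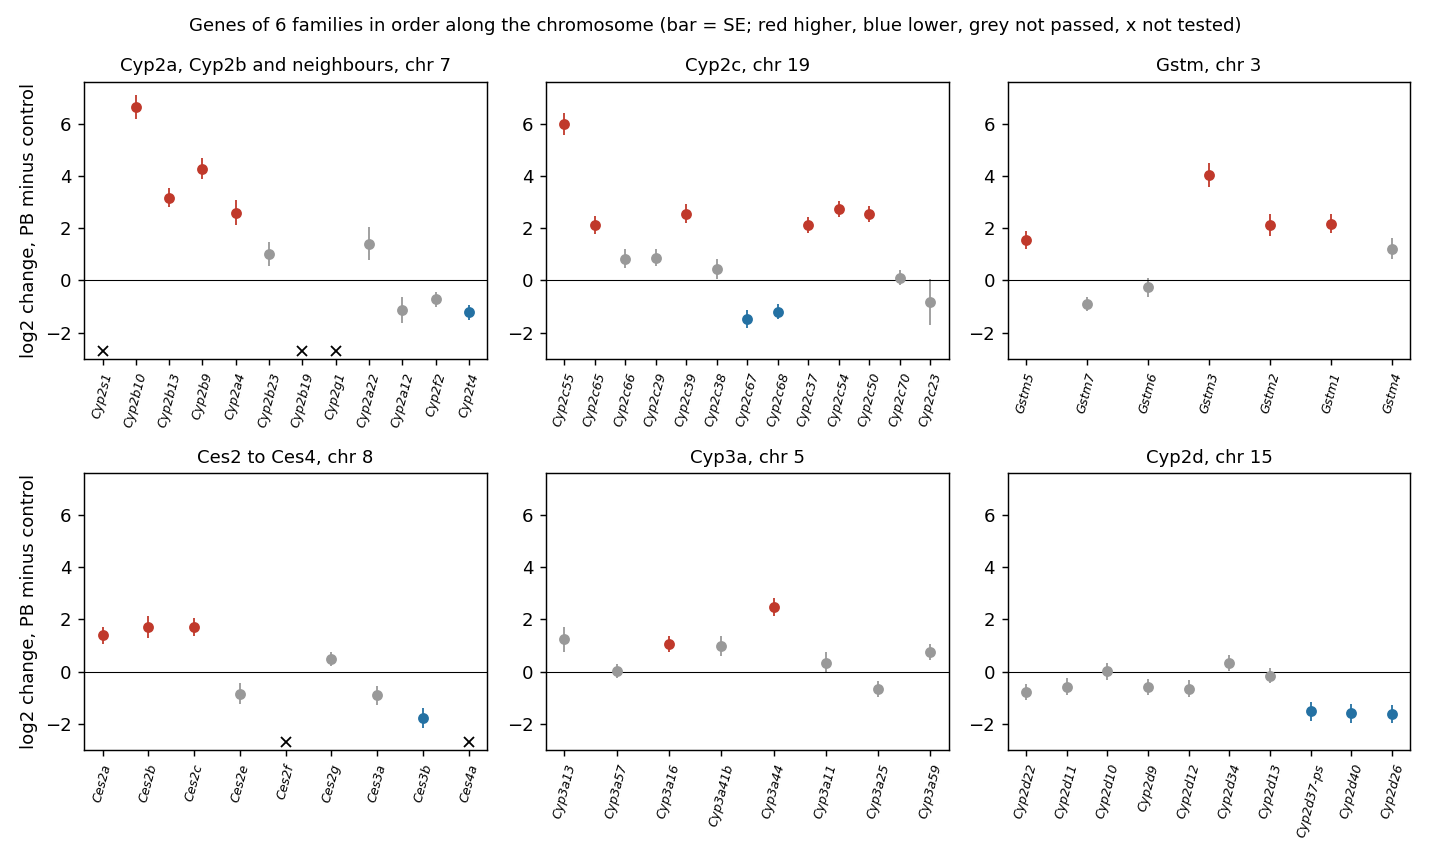
Difference in level (log2, phenobarbital minus control) of each gene of 6 families in order along its chromosome; bars are SE, red rose, blue fell, grey did not pass and crosses were not tested. Cyp2b10, at 6.66, and Cyp2c55, at 5.99, stand highest, and the 3 Cyp2d genes that fell lie side by side.

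Cyp3a genes are the best known targets of PXR. Of 8 tested on chromosome 5, 2 rose and none fell: Cyp3a44 rose at least 1.97-fold (2.49 ± 0.35, limma adjusted p = 0.000889) and Cyp3a16 rose by 1.06 ± 0.3 (limma adjusted p = 0.0452). Cyp3a11, the main hepatic member in mice, had 7.77, 8.67, 9.77 and 8.98 in phenobarbital animals against 8.95, 7.81, 8.75 and 8.31 in control animals (0.34 ± 0.41, limma adjusted p = 0.603). Its phenobarbital values spanned the whole control range, and it did not pass without the 2 end arrays either (0.85, limma adjusted p = 0.17). Cyp3a13 gave 1.25 ± 0.48 (limma adjusted p = 0.119).

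Of 24 tested P450 genes outside the CAR and PXR list none rose and 2 fell, with a median of -0.39. Both that fell belong to Cyp2d, a family of drug-oxidising enzymes on chromosome 15, where the pseudogene Cyp2d37-ps, Cyp2d40 and Cyp2d26 stand side by side. Cyp2d26 had 5.68, 6.5, 7.18 and 6.52 in phenobarbital animals against 8.51, 7.75, 8.3 and 7.83 in control animals (-1.63 ± 0.34, limma adjusted p = 0.0116), with groups apart. Cyp2d40 fell by 1.61 and Cyp2d37-ps by 1.53 on the log2 scale. The Cyp2d40 call was lost without control animal 3 (-1.34) and that of Cyp2d37-ps without control animal 3 or phenobarbital animals 1, 2 and 4 (-1.27 to -1.52). With brightness as a covariate none of the 3 passed (-0.94 for Cyp2d26, limma adjusted p = 0.112). In that setting 2 other members of the list rose and none fell (median -0.13): Cyp17a1, of steroid synthesis (1.39, limma adjusted p = 0.0169), and Cyp26a1, which degrades retinoic acid (1.68, 0.0356), which had not passed before (0.41 ± 0.39 and 0.99 ± 0.37). Cyp2e1 (-0.41 ± 0.3) and Cyp1a2 (-0.12 ± 0.34), which oxidise ethanol and aromatic amines, did not pass, nor did Cyp4a10 (-1.72 ± 0.57) and Cyp4a31 (-1.93 ± 0.56), fatty acid hydroxylases under PPARA, whose controls ranged widely. Another Cyp2e1 probe, well above background on every CD-1 array, gave -1.32.

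P450 enzymes need electrons and haem. Por, the reductase that passes electrons to all microsomal P450s, had 3.39, 4.09, 5.33 and 4.97 in phenobarbital animals against 2.87, 1.89, 2.56 and 2.25 in control animals, 4.14-fold (2.05 ± 0.4, limma adjusted p = 0.00857). Phenobarbital animal 1 was lowest in its group and still above every control. Alas1, the first and limiting enzyme of haem synthesis, had 5.55, 6.36, 6.58 and 6.43 in phenobarbital animals against 5.12, 4.3, 5.36 and 3.52 in control animals (1.65 ± 0.4, limma adjusted p = 0.025), a call lost without control animal 2 or phenobarbital animals 2, 3 and 4 (1.54 to 1.61), and its second probe gave 0.14. Of later steps of the pathway, Cpox fell by 1.13 and Ppox by 0.88 on the log2 scale (limma adjusted p = 0.0421 and 0.0475). The Cpox call was lost without control animals 1, 3 and 4 or phenobarbital animals 1, 2 and 4 (-0.99 to -1.13), and the Ppox call without any 1 of the 8 animals (-0.79 to -0.95). Alad (-1.02 ± 0.31), the second enzyme, and Hmox1 (-0.69 ± 0.28), which breaks haem down, did not pass, nor did Cyb5a, an electron carrier to P450s (0.75 ± 0.28, limma adjusted p = 0.106), although every phenobarbital animal lay above every control. In the list of haem and electron supply genes, with 20 tested, 2 rose and 2 fell (median -0.31). With brightness as a covariate 2 rose and none fell (median 0.11). When arrays were scaled to the spike-in probes 3 rose and none fell (median 0.03).

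Among conjugating enzymes, most rises were of glutathione transferases and sulfotransferases. Of 22 tested glutathione transferases 8 rose and none fell, with a median of 0.17, and 9 of 22 rose with brightness as a covariate and also without the 2 end arrays. Gstm3, a mu-class transferase, had 6.82, 8.34, 8.52 and 7.72 in phenobarbital animals against 4.48, 2.62, 3.99 and 4.13 in control animals, 16.5-fold (4.05 ± 0.45, limma adjusted p = 0.00019), and a second probe gave 2.33. In the mu-class cluster on chromosome 3, Gstm3, Gstm2 and Gstm1 stand side by side and all 3 rose. Gstm2 rose by 2.13 ± 0.43 and Gstm1 by 2.18 ± 0.37 (limma adjusted p = 0.00979 and 0.0032). Gstm5, at one end, had -0.73, 0.17, 0.62 and 0.15 in phenobarbital animals against -1.29, -2.06, -0.89 and -1.78 in control animals and also rose (1.55 ± 0.35, limma adjusted p = 0.0177). Gstm4 (1.22 ± 0.4), Gstm6 (-0.26 ± 0.36) and Gstm7 (-0.9 ± 0.28) did not pass, and in Gstm7 all phenobarbital animals lay below all controls. In the alpha class on chromosome 9, Gsta1 had 4.11, 6.24, 6.02 and 6.34 in phenobarbital animals against 2.13, 1.74, 1.33 and 2.33 in control animals (3.8 ± 0.45, limma adjusted p = 0.000336). Phenobarbital animal 1 stood below the rest of its group and above every control. Gsta2 rose by 2.77 ± 0.38 (limma adjusted p = 0.000858), while Gsta4, next to Gsta1, gave 0.38 ± 0.25. In the theta class Gstt3 rose by 1.81 ± 0.41, a call lost without phenobarbital animal 2 (1.79), and Gstt1 by 1.04 ± 0.3. Gstm5 and Gstt1 were added after their values were seen.

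Sulfotransferases had 5 of 13 tested up, none down and a median of 0.71. Sult3a1, Sult2a7 and Sult2a6 were among 5 members bright enough in phenobarbital animals alone, and of the 8 well above background on all arrays 2 rose (median 0.33). Sult3a1, an amine sulfotransferase of female mouse liver, had -0.09, -1.31, -0.17 and -0.48 in phenobarbital animals against -3.64, -2.82, -3.94 and -3.31 in control animals, at least 4.53-fold (2.91 ± 0.34, limma adjusted p = 0.000309). Sult2a7, of the bile acid and steroid sulfotransferases, had 1.65, 1.07, 1.36 and 1.64 in phenobarbital animals against -3.01, -0.62, -0.84 and -1.89 in control animals (3.02 ± 0.45, limma adjusted p = 0.00148). Sult1c2 rose by 1.83 ± 0.39. Sult2a6 (1.16 ± 0.32) and Sult1d1 (1.22 ± 0.34) passed too, but not without any of control animals 1, 2 and 3 or phenobarbital animals 1, 2, 3 and 4 (0.87 to 1.25) for Sult2a6 or control animals 2, 3 and 4 or phenobarbital animals 2, 3 and 4 (1.03 to 1.38) for Sult1d1. The other Sult2a6 probes gave 0.48 and 0.53. Of 13 tested glucuronosyltransferases and genes of their co-substrate 1 rose, Ugt2b34, with 4.6, 5.53, 5.66 and 5.23 in phenobarbital animals against 4.36, 3.49, 4.15 and 3.77 in control animals (1.31 ± 0.31, limma adjusted p = 0.0238), and its call was lost without control animals 2, 3 and 4 or phenobarbital animals 2, 3 and 4 (1.16 to 1.38). Ugdh, which makes their co-substrate, gave 0.56 ± 0.37 (limma adjusted p = 0.333), and Ugt1a1 was not matched by symbol.

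Carboxylesterases cleave ester drugs, and their members went both ways. In the Ces2 to Ces4 cluster on chromosome 8, the neighbours Ces2a, Ces2b and Ces2c rose and Ces3b fell. Ces2c had 6.13, 6.75, 7.5 and 6.87 in phenobarbital animals against 5.68, 4.63, 4.98 and 5.09 in control animals (1.72 ± 0.34, limma adjusted p = 0.00827), and its other probes gave 2.06 and 1.78. Ces2a (1.4 ± 0.33) was not past the threshold without control animal 3 or phenobarbital animal 4 (1.37 to 1.41), nor Ces2b (1.71 ± 0.43) without control animals 2 and 3 or phenobarbital animals 2, 3 and 4 (1.37 to 1.69). Ces3b had 1.66, 2.74, 3.45 and 2.32 in phenobarbital animals against 4.91, 3.89, 4.25 and 4.25 in control animals (-1.78 ± 0.38, limma adjusted p = 0.0125; -0.99, adjusted p = 0.148, with brightness as a covariate). Ces2e (-0.85 ± 0.41), Ces2g (0.48 ± 0.28) and Ces3a (-0.91 ± 0.36) did not pass. In the Ces1 cluster 1 of 7 tested fell, Ces1e (-1.28 ± 0.32), a call lost without control animals 1, 3 and 4 or phenobarbital animals 1, 2 and 4 (-1.05 to -1.33). Ephx1, the microsomal epoxide hydrolase and a classic phenobarbital-induced gene, had 5.66, 7.02, 7.15 and 6.67 in phenobarbital animals against 5.76, 4.98, 5.71 and 5.65 in control animals (1.1 ± 0.35, limma adjusted p = 0.0719). Only phenobarbital animal 1 lay within the control range. Ephx1 passed without the 2 end arrays (1.5, limma adjusted p = 0.0109) and with brightness as a covariate (1.71, 0.0307), and its second probe gave 0.06.

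Among 28 tested aldehyde, alcohol and other oxidoreductases 2 rose and 1 fell. Akr1b7, an aldose reductase-like enzyme that detoxifies lipid aldehydes, had -0.01, -0.7, 0.55 and 0.26 in phenobarbital animals against -2.97, -3.21, -4.22 and -3.29 in control animals, at least 6.78-fold (3.45 ± 0.35, limma adjusted p = 0.000125). Aldh1a7, a phenobarbital-inducible aldehyde dehydrogenase in mice, had 4.53, 4.76, 5.06 and 4.48 in phenobarbital animals against 3.76, 3.02, 3.35 and 3.3 in control animals (1.35 ± 0.27, limma adjusted p = 0.0099). Aox3, the main hepatic aldehyde oxidase in mice, went the other way, with 0.42, 0.62, 1.41 and 0.57 in phenobarbital animals against 3.09, 2.54, 2.65 and 2.53 in control animals (-1.95 ± 0.29, limma adjusted p = 0.00154). It also passed with brightness as a covariate (-1.5, limma adjusted p = 0.0191).

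Transporters showed 1 rise and 3 falls among 19 tested, with a median of -0.44. Abcc4, an efflux pump of the basolateral membrane known to respond to CAR, had -1.59, -1.88, -1.62 and -1.63 in phenobarbital animals against -2.36, -2.83, -3.32 and -3.11 in control animals, at least 2.02-fold (1.22 ± 0.28, limma adjusted p = 0.0181). The groups did not overlap, and the call was lost without control animal 3 or phenobarbital animal 4 (1.08 to 1.21). Abcc2 (0.23 ± 0.49) and Abcc3 (0.55 ± 0.41), efflux pumps of the canalicular and basolateral membrane, did not pass, and in both phenobarbital animal 1 lay below all controls while the other 3 phenobarbital animals lay above all of them. Without the 2 end arrays Abcc2 passed (0.99, limma adjusted p = 0.0425) and Abcc3 did not (1.01, 0.0698). Slco1a1, an uptake carrier of male-biased expression, had 0.7, 1.87, 2.29 and 1.15 in phenobarbital animals against 3.72, 2.78, 3.37 and 2.98 in control animals (-1.71 ± 0.37, limma adjusted p = 0.0135; -1.0 and adjusted p = 0.163 with brightness as a covariate). Abcc6 (-1.49 ± 0.35) and Slco2b1 (-1.18 ± 0.32) also fell, calls lost without control animal 3 or phenobarbital animals 1, 2 and 4 (-1.28 to -1.52) for Abcc6 and control animals 1, 3 and 4 or phenobarbital animals 1, 2 and 4 (-0.98 to -1.26) for Slco2b1. Slco1a4, an uptake carrier known as a CAR and PXR target, gave 0.11 ± 0.33 (limma adjusted p = 0.854). The CAR and PXR P450, glutathione transferase, glucuronosyltransferase, sulfotransferase, esterase and oxidoreductase lists held 115 tested genes together, of which 31 rose and 3 fell, with a median of 0.34. For the 98 of them well above background on all arrays, 22 rose and 3 fell (median 0.14). With brightness as a covariate 35 rose and 1 fell (median 0.72), and without the 2 end arrays 39 of 118 rose and 2 fell (median 0.58).

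**Figure D3:**
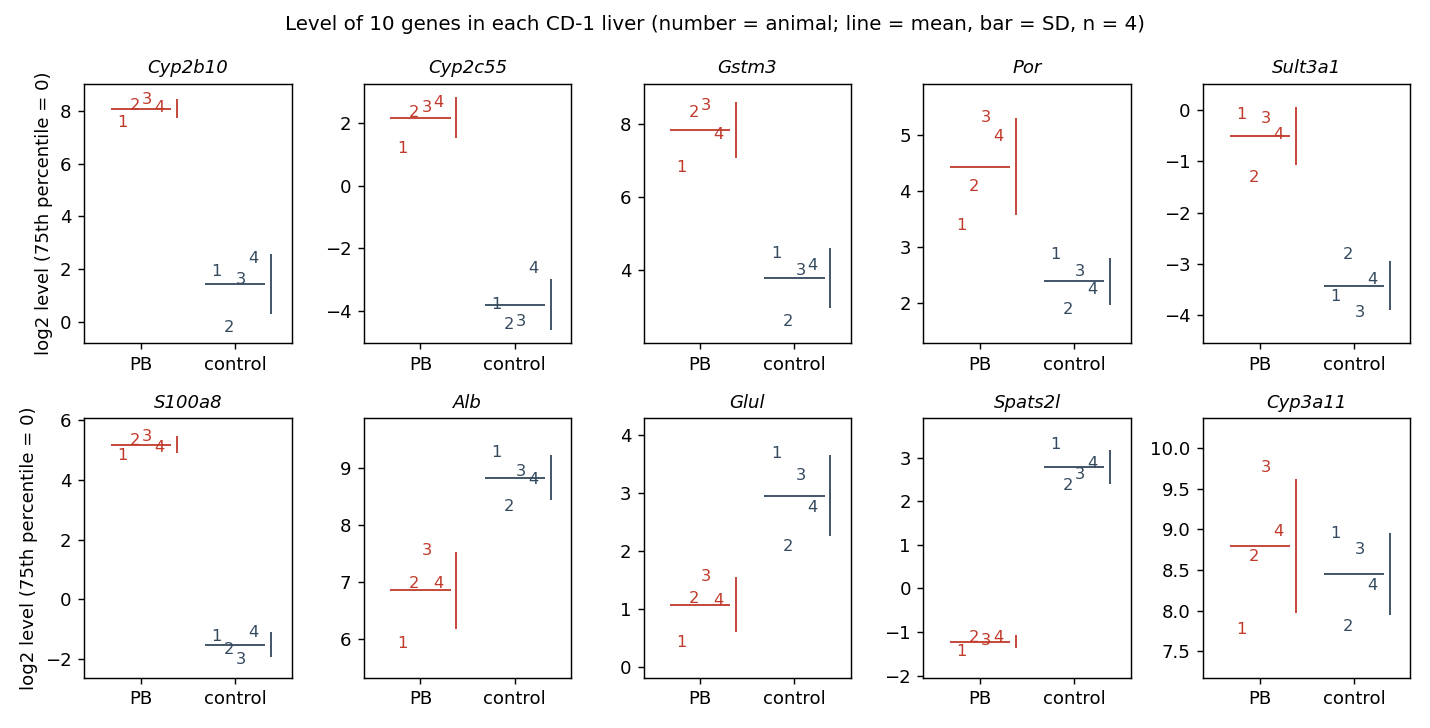
Level (log2, 75th percentile of the array = 0) of 10 genes in each CD-1 liver, phenobarbital (PB) left of control; numbers are animals, lines are means and bars SD (n = 4 per group). Cyp2b10, Cyp2c55, Gstm3, Por, Sult3a1 and S100a8 lie higher in every phenobarbital animal, Alb, Glul and Spats2l lower, and Cyp3a11 overlaps.

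Of 25 genes on the array with female-biased expression in mouse liver, 16 were bright enough to be tested in these males. Of these 8 rose, 1 fell and 7 did not pass, with a median of 0.73, and 8 rose under brightness as a covariate as well as without the 2 end arrays. Of the 8, 6 were bright enough in phenobarbital animals alone, and of the 9 members well above background on all arrays 2 rose and 1 fell (median 0.17). Several of the 8 are the P450 and sulfotransferase genes above (Cyp2b9, Cyp2b13, Cyp2a4, Cyp3a44, Cyp3a16 and Sult3a1), so the count is not a separate set of genes. The other 2 were Slc22a26, an organic anion carrier, with -1.25, -2.55, -1.9 and -1.78 in phenobarbital animals against -3.73, -4.47, -4.31 and -4.73 in control animals (at least 1.82-fold, 2.44 ± 0.33, limma adjusted p = 0.000759), and Prom1. Prom1, a membrane glycoprotein of progenitor cells, had 1.33, 0.47, 1.71 and 1.68 in phenobarbital animals against -2.57, -4.53, -2.88 and -4.16 in control animals, at least 16.4-fold (4.83 ± 0.45, limma adjusted p = 6.74e-05). Its second detected probe gave 0.41, so the size rests on 1 probe. Rtn4, which shapes the endoplasmic reticulum, fell (-1.18 ± 0.32), a call lost without control animals 1 and 3 or phenobarbital animals 1, 2 and 3 (-0.96 to -1.23). Among 22 tested male-biased genes none rose and 3 fell (median -0.52): Slco1a1, Cyp7b1 and Susd4. Cyp7b1, an oxysterol hydroxylase, had 2.49, 3.18, 3.68 and 2.75 in phenobarbital animals against 4.72, 4.62, 4.49 and 4.12 in control animals (-1.46 ± 0.31, limma adjusted p = 0.0122), and Susd4, a complement regulator, gave -1.63 ± 0.39 but did not pass without control animal 3 or phenobarbital animals 1 and 2 (-1.39 to -1.62). No male-biased gene passed with brightness as a covariate. Of 16 tested growth hormone and STAT5 genes none passed (median -0.61). Among them Igfbp1 had 0.17, 0.32, 3.36 and 3.84 in phenobarbital animals against 5.3, 3.57, 5.18 and 3.5 in control animals (-2.47 ± 0.78, limma adjusted p = 0.0693), low in phenobarbital animals 1 and 2 and within the control range in animal 4.

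Lists of other hepatocyte genes, a few of which also handle drugs (Abcc4 among them), gave more falls than rises, as all tested genes did. The lists of zonated, glucose, lipid, bile acid, secreted-protein, nuclear receptor, transporter and male-biased genes held 238 tested genes together, of which 2 rose (0.84%) and 29 fell (12.2%), with a median of -0.62, against 1.85% higher, 6.13% lower and a median of -0.04 over all tested genes. That split moved with the arrays: 2 rose and 3 fell with brightness as a covariate (median -0.16), 3 rose and 10 fell when arrays were scaled to the spike-in probes, a setting that moved the median of all tested genes to 0.30 (median -0.28), and 5 rose and 18 fell of 243 without the 2 end arrays (median -0.32). Over all tested genes the dimmest of 4 equal bins by mean level had a median difference of 0.15 and the brightest -0.22. Alb, for serum albumin, had 5.93, 6.98, 7.56 and 6.97 in phenobarbital animals against 9.27, 8.32, 8.94 and 8.79 in control animals (-1.97 ± 0.36, limma adjusted p = 0.00492), -1.22 with brightness as a covariate (limma adjusted p = 0.0568). Of 23 tested secreted proteins Alb, Apoa1 (-1.32 ± 0.31) and Apoe (-1.15 ± 0.32) fell. Apoa1 did not pass without control animal 3 or phenobarbital animals 1, 2 and 4 (-1.14 to -1.36), nor Apoe without control animals 1, 3 and 4 or phenobarbital animals 1, 2 and 4 (-0.9 to -1.21).

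Pericentral genes, expressed around the central vein, included 4 falls among 20 tested and no rise (median -0.42). With brightness as a covariate 1 rose and 1 fell (median -0.24). When arrays were scaled to the spike-in probes 1 rose and 2 fell (median -0.08). Glul, the glutamine synthetase of the innermost hepatocytes, had 0.42, 1.18, 1.56 and 1.15 in phenobarbital animals against 3.68, 2.08, 3.3 and 2.75 in control animals (-1.88 ± 0.37, limma adjusted p = 0.00875). Slc1a2, which takes up glutamate in that same zone, had -0.8, -0.61, -0.05 and 0.25 in phenobarbital animals against 2.0, 0.78, 2.3 and 1.8 in control animals (-2.03 ± 0.36, limma adjusted p = 0.00487). Oat, the ornithine aminotransferase beside them, had -1.16, -0.96, -1.37 and -1.31 in phenobarbital animals against 0.01, -0.28, 0.38 and 0.17 in control animals (-1.27 ± 0.26, limma adjusted p = 0.0109), a call lost without control animal 3 (-1.17). Oat passed with brightness as a covariate (-1.32, limma adjusted p = 0.0344), whereas Glul (-1.06, 0.1) and Slc1a2 (-1.47, 0.0845) did not. Ang, an angiogenin, fell by 1.73 on the log2 scale, a call lost without control animal 3 or phenobarbital animals 2 and 4 (-1.49 to -1.61). Gulo (-1.3 ± 0.42), which makes vitamin C in mice, and Rgn (-0.94 ± 0.32) did not pass.

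Periportal genes gave 2 falls among 20 tested (median -0.76). Etnppl, an enzyme of phospholipid breakdown, had -0.86, 1.35, 1.52 and 1.53 in phenobarbital animals against 3.06, 2.85, 2.75 and 3.19 in control animals (-2.08 ± 0.47, limma adjusted p = 0.017), with phenobarbital animal 1 far below the rest. The urea cycle genes Arg1 (-1.1 ± 0.34), Cps1 (-1.05 ± 0.34) and Ass1 (-1.03 ± 0.38) did not pass. Of 23 tested genes of gluconeogenesis and amino acid breakdown 4 fell (median -0.73). G6pc, the last step of glucose release, had 2.29, 4.18, 4.34 and 4.05 in phenobarbital animals against 5.27, 5.34, 5.8 and 5.37 in control animals (-1.73 ± 0.41, limma adjusted p = 0.0225), and not without control animal 3 (-1.61). Tat (-1.47 ± 0.37), Pcx (-1.19 ± 0.32) and Cbs (-1.29 ± 0.35) fell too, calls lost without control animals 2 and 3 or phenobarbital animals 1, 2 and 4 (-1.22 to -1.46) for Tat, control animals 1, 3 and 4 or phenobarbital animals 1, 2 and 4 (-1.03 to -1.28) for Pcx and control animals 1, 3 and 4 or phenobarbital animals 1, 2 and 4 (-1.13 to -1.32) for Cbs. With brightness as a covariate no gene of the periportal or the gluconeogenesis list passed. Pck1, the textbook gluconeogenic gene, overlapped between groups (-0.86 ± 0.44, limma adjusted p = 0.221). Among 20 tested glycolysis and glycogen genes Ppp1r3c, a glycogen-targeting phosphatase subunit, fell (-3.62, -1.18, -1.69 and -3.25 in phenobarbital animals against 0.06, 0.16, -0.01 and 0.14 in control animals, -2.52 ± 0.47, limma adjusted p = 0.00589). Ldha fell (-1.28 ± 0.33), but not without control animals 1 and 3 or phenobarbital animals 1, 2 and 4 (-1.13 to -1.23). Hk1, a hexokinase, rose (2.17 ± 0.42, limma adjusted p = 0.00966) with 1 control spot dropped as an outlier, and its second probe gave 0.00. No gene of this list, Ppp1r3c and Hk1 included, passed with brightness as a covariate (median 0.16). The same held when arrays were scaled to the spike-in probes (median 0.10).

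Lipid genes gave further falls. Of 24 tested lipogenesis and lipid droplet genes none rose and 4 fell (median -0.87). Plin4, a lipid droplet coat protein, had -1.96, -2.78, -2.23 and -2.76 in phenobarbital animals against -0.23, -0.78, -0.59 and -0.6 in control animals (-1.88 ± 0.28, limma adjusted p = 0.00154; -1.86 and adjusted p = 0.017 with brightness as a covariate). Plin5, which couples droplets to mitochondria, fell by 1.63 on the log2 scale and did not pass with brightness as a covariate (-1.14, limma adjusted p = 0.136). Agpat2 (-1.28 ± 0.28) and Srebf1, the master regulator of lipogenesis (-1.12 ± 0.26), did not pass without control animal 3 (-1.27) for Agpat2 and control animal 3 or phenobarbital animal 4 (-1.07 to -1.12) for Srebf1. Elovl6, a fatty acid elongase, had 1.09, 2.79, 1.72 and 1.78 in phenobarbital animals against 0.79, 0.29, 0.86 and 0.68 in control animals, without overlap, but did not pass (1.19 ± 0.35, limma adjusted p = 0.0527), and Scd1 gave -1.68 ± 0.5. In fatty acid oxidation, 2 of 28 tested fell (median -0.76), among them Ppara. Ppara had 1.31, 2.38, 2.52 and 2.53 in phenobarbital animals against 4.3, 3.34, 4.43 and 3.66 in control animals (-1.75 ± 0.35, limma adjusted p = 0.0102), and its other probes gave -1.52 and -1.40. It did not pass with brightness as a covariate (-1.05, limma adjusted p = 0.121).

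Of 20 tested bile acid genes 3 fell (median -0.73): Cyp7b1, Klb and Hsd3b7. Klb, the hepatic co-receptor for fibroblast growth factors, fell by 1.53 on the log2 scale, a call lost without control animal 3 or phenobarbital animal 2 (-1.4 to -1.44), and Hsd3b7 by 1.24, lost without control animals 1, 3 and 4 or phenobarbital animals 1, 2 and 4 (-1.0 to -1.28). Cyp7a1, which sets the pace of bile acid synthesis, had -1.67, -1.93, -0.89 and 1.67 in phenobarbital animals against -0.03, -1.49, -1.28 and -0.81 in control animals (0.2 ± 0.65, limma adjusted p = 0.861), with phenobarbital animal 4 far above all others. No gene of the bile acid list passed with brightness as a covariate. None of 24 tested cholesterol genes passed (median -0.36).

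**Figure D4:**
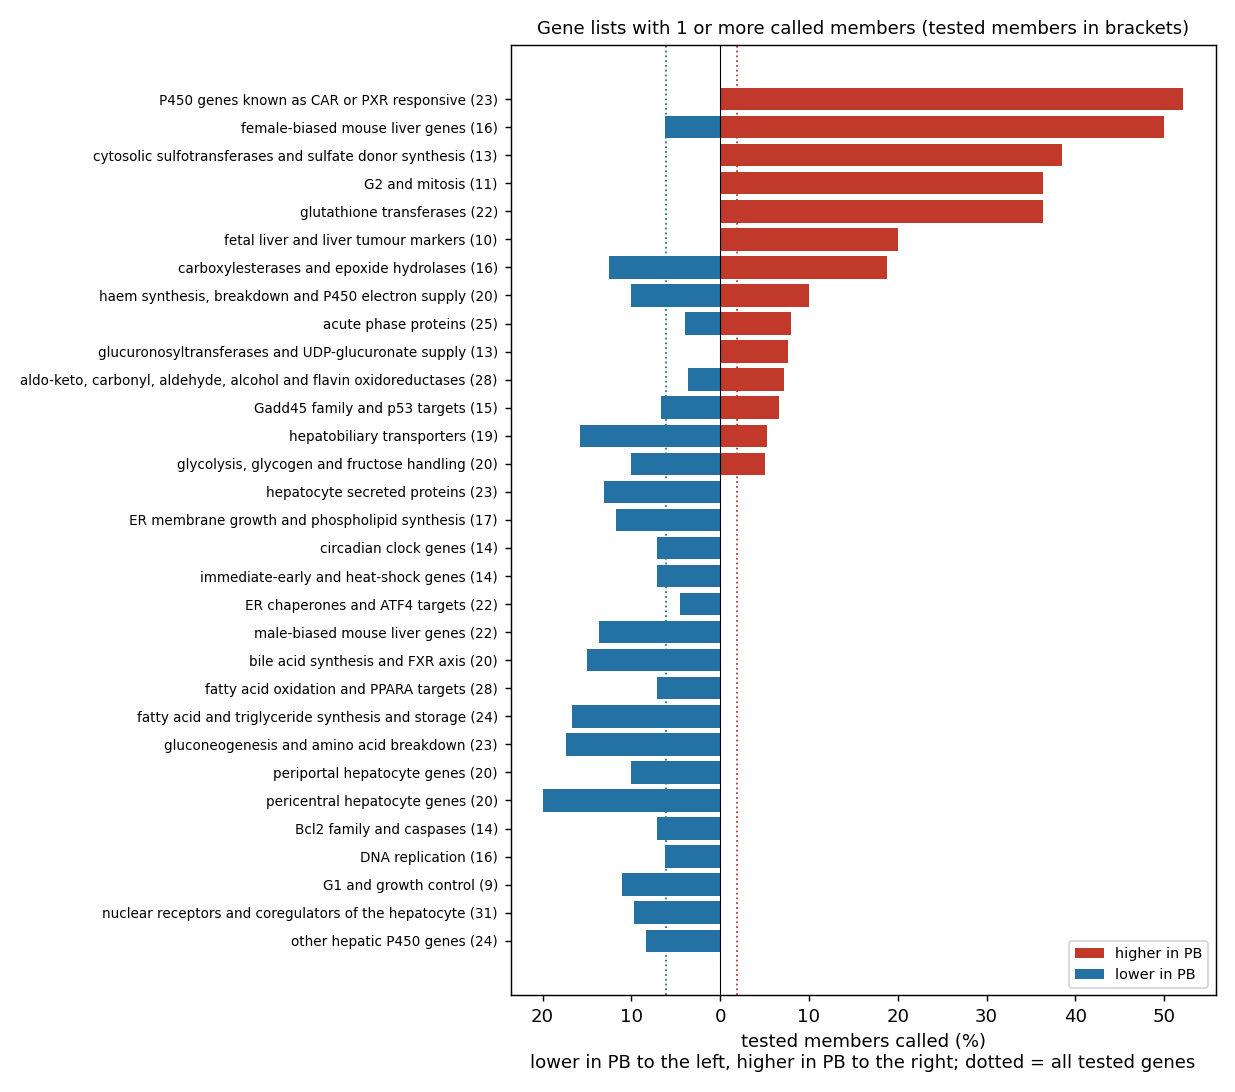
Share of the tested members of each gene list, in %, that rose (right) or fell (left) in phenobarbital animals, for lists with 1 or more called members other than cell type markers; tested members are in brackets. Dotted lines mark the 1.85% higher and 6.13% lower over all tested genes, and the P450 list and the female-biased list stand at the top, with 5 of 12 and 6 of 8 rises from members bright enough in phenobarbital animals alone.

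Growth and damage genes gave few calls. Of 26 mitosis genes only 11 were bright enough to be tested, and 4 of these rose (median 0.73). All 4 were among 7 members bright enough in phenobarbital animals alone, and of the 4 members well above background on all arrays none rose (median 0.07). Cdc20, an activator of mitotic exit, had -1.49, -0.2, 0.46 and -0.95 in phenobarbital animals against -2.59, -2.61, -2.28 and -2.51 in control animals, at least 3.68-fold (1.96 ± 0.38, limma adjusted p = 0.00741). Kif2c rose at least 3.7-fold (2.4 ± 0.42), Kif11 by 1.65 ± 0.34 and Birc5 by 1.94 ± 0.5, the last of these not without control animal 3 or phenobarbital animals 2, 3 and 4 (1.6 to 2.1), and its other probes gave -0.01 and 0.78. The second Kif2c probe, well above background on 3 phenobarbital arrays and 1 control array, gave 0.69. With brightness as a covariate 2 of the 11 rose (median 0.16), without Kif11 (1.14, limma adjusted p = 0.132) and Birc5 (1.74, 0.229). Mki67, the standard proliferation marker, gave 0.51 ± 0.34 (limma adjusted p = 0.346), and Ccnd1, the G1 cyclin, was not bright enough to test. Another Mki67 probe, well above background on 3 phenobarbital arrays and 1 control array, gave 1.24. The G1 list had 9 tested and 1 fall, E2f8, and the S phase list 16 tested and 1 fall, Mcm10, a replication factor. E2f8 did not pass without control animal 3 or phenobarbital animals 1 and 2 (-1.21 to -1.44), nor Mcm10 without control animals 1 and 3 or phenobarbital animal 2 (-1.56 to -1.89). Myc gave 0.53 ± 0.28.

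The GADD45 genes split. Gadd45b, a stress gene that CAR induces in mouse liver, had 1.97, 3.28, 2.54 and 2.95 in phenobarbital animals against 1.08, 0.37, 0.56 and 0.48 in control animals (2.06 ± 0.32, limma adjusted p = 0.00197), with every phenobarbital animal higher. Gadd45g fell, with -0.12, 0.22, 1.94 and 0.51 in phenobarbital animals against 4.31, 2.13, 3.72 and 1.52 in control animals (-2.28 ± 0.59, limma adjusted p = 0.0336). Phenobarbital animal 3 overlapped control animal 4, and the call was lost without control animals 1 and 3 or phenobarbital animals 1, 2 and 4 (-1.82 to -2.24) and with brightness as a covariate (-0.87, 0.429). Gadd45a (0.75 ± 0.4) and the p53 target Mdm2 (0.37 ± 0.31) did not pass. Of 14 tested apoptosis genes Xiap, an inhibitor of caspases, fell (-1.34 ± 0.36), but not without control animals 1, 3 and 4 or phenobarbital animals 1, 2 and 4 (-1.1 to -1.39). Dusp1, an early phosphatase of MAP kinases, was the only call among 14 immediate-early genes: -3.84, -3.11, -2.6 and -2.48 in phenobarbital animals against 0.35, -0.58, -0.57 and -0.83 in control animals, at least 5.42-fold lower (-2.6 ± 0.36, limma adjusted p = 0.000913; -1.75 with brightness as a covariate).

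Lists of several pathways that drugs can engage gave no call. None of 23 tested members of the list of NRF2 targets and glutathione supply passed (median -0.10). That list does not hold the glutathione transferases that rose, such as Gsta1 and Gstm1. No call was made either among 24 ribosomal (-0.01), 23 proteasome (-0.10), 22 oxidative phosphorylation (-0.32), 17 interferon (0.38), 16 metal-handling (-0.15), 10 thyroid hormone (-0.50) or 12 reference genes (-0.25). Dio1, the hepatic deiodinase, gave 1.27 ± 0.4 (limma adjusted p = 0.0693). Few members fell in the ER stress list (Atf5, 22 tested), the clock list (Hlf, 14 tested) and the smooth endoplasmic reticulum and lipid membrane list (Rtn4 and Lpcat3, 17 tested). Atf5 did not pass without control animal 3 or phenobarbital animals 1, 2 and 4 (-1.32 to -1.35), Hlf without control animals 1 and 3 or phenobarbital animals 1, 2, 3 and 4 (-0.95 to -1.31) and Lpcat3 without control animals 1, 3 and 4 or phenobarbital animals 1, 2 and 4 (-0.99 to -1.34). Mt2, a metallothionein, varied widely within both groups and had 7.79, 3.3, 6.15 and 6.75 in phenobarbital animals against 4.46, 3.1, 5.73 and 2.34 in control animals (2.09 ± 0.86, limma adjusted p = 0.143).

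Of 25 tested acute phase genes, 2 rose and 1 fell (median 0.12). Orm3, of the orosomucoids, had 3.24, 2.57, 3.31 and 3.1 in phenobarbital animals against -0.37, 0.99, 0.74 and 0.39 in control animals (2.62 ± 0.33, limma adjusted p = 0.0005). Lcn2, a siderophore-binding protein, had 5.12, 2.32, 3.82 and 3.39 in phenobarbital animals against 1.43, 1.29, 2.57 and 1.11 in control animals (2.06 ± 0.51), a call lost without control animals 2 and 4 or phenobarbital animals 1, 3 and 4 (1.57 to 2.15). Itih3 fell (-1.01 ± 0.28), though not without control animals 1, 2, 3 and 4 or phenobarbital animals 1, 2 and 4 (-0.88 to -1.07). Saa1, a serum amyloid, had 9.33, 5.56, 7.86 and 4.89 in phenobarbital animals against 4.23, 5.51, 5.54 and 4.0 in control animals (2.09 ± 0.79, limma adjusted p = 0.116).

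Of the neutrophil markers S100a8 rose about as far as Cyp2b10. S100a8, a calcium-binding protein abundant in neutrophils, had 4.82, 5.32, 5.45 and 5.08 in phenobarbital animals against -1.25, -1.67, -2.01 and -1.1 in control animals, 102-fold (6.67 ± 0.29, limma adjusted p = 1.7e-07; 6.93 with brightness as a covariate). Every phenobarbital animal lay far above every control. S100a9, which encodes the partner of the same protein complex, gave 0.62 ± 0.31 (limma adjusted p = 0.218), with 1.01, 0.44, 1.45 and 1.19 in phenobarbital animals against 0.22, 0.08, 0.32 and 1.01 in control animals. Of 9 tested neutrophil markers S100a8 alone rose and none fell (median 0.62). Their summed linear level was 129.7 to 321.6 in phenobarbital animals and 170.5 to 380.2 in controls, and the defining markers Mpo and Mmp9 were not well above background on any CD-1 array. Csf3r, the brightest of them, gave -0.9 ± 0.35 (limma adjusted p = 0.124) and Elane 0.69 ± 0.47, with the spot of phenobarbital animal 2 dropped as an outlier. Of 10 tested fetal liver and liver tumour markers 2 rose and none fell (median 0.07), Prom1 and Lcn2, and Afp was not bright enough to test.

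Markers of the other cell types gave 5 falls and no rise among 83 tested, and the share of falls (6.02%) was near the 6.13% over all tested genes. None of 14 tested Kupffer cell and macrophage markers passed, with summed levels of 130.1 to 238.3 in phenobarbital animals and 203.5 to 351.7 in controls. Of 15 tested endothelial markers Bmp2 fell (-1.23 ± 0.31), of 11 stellate cell markers Acta2 (-1.19 ± 0.32), of 9 lymphocyte markers Cd79a (-1.66 ± 0.31), of 8 bile duct markers Cldn4 (-1.89 ± 0.25) and of 7 fat cell markers Lep (-2.08 ± 0.31). Bmp2 did not pass without control animals 1 and 3 or phenobarbital animals 1, 2 and 4 (-1.1 to -1.23), nor Acta2 without control animals 1 and 3 or phenobarbital animals 1, 2, 3 and 4 (-0.91 to -1.28). The second Cldn4 probe gave 0.42, and with the mean of its probes Cldn4 did not pass (-0.73, limma adjusted p = 0.157). In the endothelial list Kdr, a receptor for vascular endothelial growth factor that was added after its values were seen (0.67 ± 0.35), rose in place of Bmp2 with brightness as a covariate (1.42, limma adjusted p = 0.0332) and without the 2 end arrays (1.17, 0.0268). Summed levels of the endothelial list were 110.8 to 281.8 in phenobarbital animals and 103.2 to 206.2 in controls, and those of the fat cell list were 194.1 to 871.7 in phenobarbital animals and 635.2 to 1210 in controls. Car3 was the brightest gene of the fat cell list, which also holds Pck1, the gluconeogenic gene above. The sum of that list is therefore not particular to fat cells. None of 8 red cell, 5 pancreas or 6 muscle and mesothelium markers passed. The part of these cells in the results above was not tested. The marker sums overlapped between the groups in all 11 cell type lists, the hepatocyte list included.

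Among genes well above background on all 8 arrays, Spats2l fell most. Spats2l, a stress granule protein, had -1.45, -1.13, -1.19 and -1.12 in phenobarbital animals against 3.3, 2.35, 2.62 and 2.86 in control animals, 16-fold lower (-4.0 ± 0.28, limma adjusted p = 1.69e-05). Tmem130, a membrane protein, fell by 3.37, Mdh1b by 3.03 and Nog, which blocks bone morphogenetic proteins, by 2.94 on the log2 scale, each with groups apart. All 4 passed with brightness as a covariate (-2.62 to -3.62). Gml2 fell by 2.90 as well, and Hbb-bh1, an embryonic globin (-3.52 ± 0.37), and Mcemp1 (-3.13 ± 0.36) fell to levels not well above background on any phenobarbital array. For 3 other falls of that size the probes of the gene disagreed. Dppa4, a pluripotency factor, fell by 3.37 while its other 2 probes gave -0.22 and 1.54. Resf1 fell by 2.74 while its second probe gave 0.61, and Cbfa2t3, a transcriptional corepressor, fell at least 12.1-fold (-4.3 ± 0.33) while its others gave 0.28 and 0.82. By contrast Rdh16f2, a retinol dehydrogenase, fell on both of its probes (-2.83 and -2.99), and Meig1, a spermatogenesis gene, rose on both (4.74 and 4.72, at least 14.9-fold by the first).

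Probes of the same gene were compared more widely, since 9668 of 37208 genes and transcripts had several. For 33 called-higher genes with other tested probes, 32 of 36 of these probes (88.9%) pointed the same way, with a median of 0.71 against 1.72 for the probes used. For 136 called-lower genes 97 of 158 did (61.4%), with a median of -0.34 against -1.31. These shares are a description with no test, and the probe used was always the brightest of the gene.

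The change in CD-1 livers was then set beside the other 2 feeding experiments. These have their own controls, and dose, time, strain, receptors, slide and the carcinogen differ between them, so that a difference cannot be assigned to any of these. The upper end of the signal also differed: its 99th percentile lay between 4019 and 6490 on CD-1 arrays and between 22576 and 48010 on all others. Of the 440 genes and transcripts that rose in CD-1, 171 were tested in hCAR/hPXR mice too, where 68.4% had a positive difference and 55.0% rose, against 59.5% and 35.4% of all 16766 tested in both. In C3H mice 166 could be set side by side, and 69.3% were positive and 41.6% rose, against 42.7% and 6.12% of all 15543. Of those that fell in CD-1, 71.6% of 1181 were negative and 49.7% fell in hCAR/hPXR mice, against 40.5% and 24.9% of all, and 75.6% of 1039 were negative and 15.5% fell in C3H mice, against 57.3% and 7.86%. Among genes with a symbol the shares differed. Of those that rose in CD-1, 83.3% of 108 were positive and 67.6% rose in hCAR/hPXR mice, against 72.3% and 45.4% of all 10457 with a symbol, and 77.4% of 106 were positive and 51.9% rose in C3H mice, against 49.8% and 7.70% of all 10135. Of those that fell in CD-1, 58.9% of 582 were negative and 35.0% fell in hCAR/hPXR mice, against 27.7% and 14.4%, and 67.7% of 538 were negative and 17.1% fell in C3H mice, against 50.3% and 6.01%. These shares are a description with no test.

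A difference between experiments was tested gene by gene, with interaction terms in limma, fitted to the 28 arrays together. The spread in that fit is pooled over all of these arrays. For Cyp2c54 the SE of the interaction with hCAR/hPXR was 0.28, against 0.31 for the CD-1 effect alone. With all 28 arrays in 1 fit the CD-1 calls themselves numbered 6184, against 1900, so the adjusted p of these differences may be too small. Over all genes tested in both, the CD-1 effect differed from the hCAR/hPXR effect in 40.2%, with the CD-1 effect the more positive in 10.3%, and from the C3H effect in 18.7%, with the CD-1 effect the more positive in 5.11%. Cyp2b10 rose further in CD-1 than in hCAR/hPXR mice (6.66 against 4.49, interaction 2.17 ± 0.46, limma adjusted p = 0.000833), though not past the threshold with normexp and quantile normalization (1.09, limma adjusted p = 0.0694). Cyp2c55 (5.99 against 3.30) and Cyp2c54 (2.73 against 0.62) also rose further in CD-1. Abcc4 gave a smaller difference in CD-1 than in either of the other experiments (1.22, against 3.62 in hCAR/hPXR and 6.70 in C3H mice). No CD-1 control array was well above background for Abcc4, so its CD-1 rise is known only as a lower bound. Whether Abcc4 truly rose less in CD-1 was not tested. Glul fell in CD-1 by 1.88 and gave 0.03 in hCAR/hPXR and 3.18 in C3H mice, and S100a8 rose by 6.67 in CD-1 against 1.05 and 1.63 in these. Mki67 gave 0.51 in CD-1, 2.51 in hCAR/hPXR and 4.42 in C3H mice. Cyp2b9 (4.29 in CD-1, 4.90 in hCAR/hPXR and 5.95 in C3H mice) gave an interaction that changed sign when arrays were quantile normalised (2.65 against hCAR/hPXR and 2.17 against C3H).

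**Figure D5:**
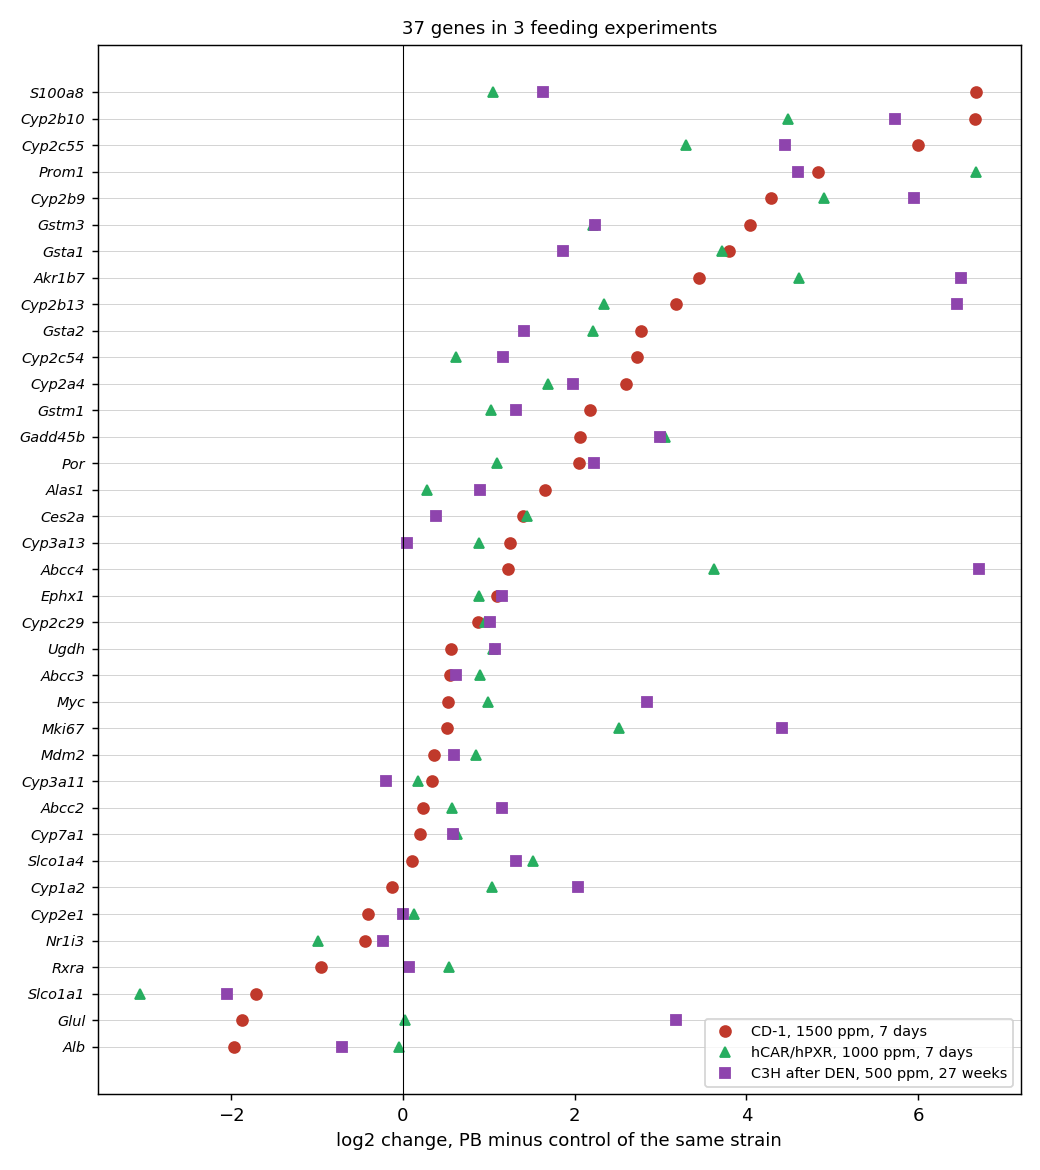
Difference in level (log2, phenobarbital minus the control of the same strain) of 37 genes in CD-1 (circles), hCAR/hPXR (triangles) and C3H mice (squares), ordered by the CD-1 value. Cyp2b10 and S100a8 stand highest in CD-1, and Abcc4 and Glul are far apart between the experiments.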

How the data were processed

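Liver RNA of 28 male mice was measured, 8 of them CD-1, on 1-colour Agilent arrays, from total RNA labelled with Cy3 per the labels' protocols. Per the file headers the authors' scanner files hold the processed spot intensity of Agilent Feature Extraction, background-subtracted and detrended within the array. The deposited value table holds log2 values, relative to a constant of each array as the comparison with the scanner files showed. How its scaling was made is not given in the sources used here. Outlier and control spots were dropped, log2 processed intensity minus the array's 75th percentile was taken, and limma 3.58.1 in R 4.3.3 was fitted to the 8 arrays, with Benjamini-Hochberg adjustment over all tested genes. Symbols came from RefSeq by accession (26582 of 55681 probes, 20145 symbols), and the probe with the highest mean over the 28 arrays stood for a gene. Differences between experiments came from 1 fit of 6 group means. The same fit was run on simulated arrays with the means and spreads of the tested genes. It called 4.5% of genes changed by 1 on the log2 scale, 65.7% of those changed by 2 and 94% of those by 3. Only 66 or 67 of 23674 genes were changed at each size, far fewer than the 1900 called in the data. The adjusted threshold was therefore stricter there, and genes varied independently, unlike on these arrays. These shares thus do not measure the recovery of the test reported here. A gene described as not passing may still differ by 2-fold or more. The number of arrays limits the precision, and the labels name the arrays as biological replicates.

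Named genes are a panel of CAR target and control genes, the 10 largest rises and falls detected on all 8 arrays with groups apart, the 5 largest bounds each way, up to 6 called and 3 not passing members of each list, and runs of neighbours; others are said to be added. Members and lists were chosen with earlier results of these data known. Same-numbered animals did not pair: their deviations correlated by -0.45, -0.09, 0.06 and -0.06 for animals 1 to 4. Alternatives covered scaling, background, filter, probe choice, prior, array weights, pairing, brightness and each animal left out. One of the named genes is not reported here.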

Additional observations from a re-analysis of the deposited data

Results flagged for a closer look

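In 17 groups of 4 among the genes described, 1 animal lay further from the rest than Dixon's 95% limit allows, of 33 in 538 groups of named genes (6.13%), and chance gives about 1 in 20. Phenobarbital animal 1 was the one apart for Nr1i3 (1.46, against 0.86 to 0.95 in the others), Gsta1 (4.11), Ppara (1.31), Mcm10 (-0.50), Etnppl (-0.86), Ces3a (5.71), G6pc (2.29) and Ass1 (5.47), lowest in all but Nr1i3. Control animal 1 was lowest for Cyp2b13 (-3.95), Mki67 (-1.28) and Birc5 (-3.83), and control animal 2 for Ephx1 (4.98) and Abcc3 (3.88). Control animal 3 was highest for Ppox (1.38). Phenobarbital animal 2 was lowest for Abcc4 (-1.88) and highest for Cyp4a31 (2.49), and phenobarbital animal 3 highest for Atf5 (6.04).

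The CD-1 effect minus the hCAR/hPXR effect passed for 19 of 38 panel genes, by limma interaction terms. It was positive for Nr1i3 (0.55), Cyp2b10 (2.17), Cyp2c55 (2.70), Cyp2c54 (2.11), Por (0.96), Alas1 (1.37), Gstm1 (1.15), Gstm3 (1.83) and S100a8 (5.63). It was negative for Rxra (-1.50), Cyp1a2 (-1.16), Abcc4 (-2.40), Slco1a4 (-1.40), Gadd45b (-0.99), Mki67 (-2.001), Glul (-1.91), Alb (-1.93), Sult3a1 (-3.22) and Prom1 (-1.84). The CD-1 effect minus the C3H effect passed for 16 of 38, positive for Cyp2c55 (1.55), Cyp2c54 (1.57), Gstm3 (1.81), Gsta1 (1.93) and S100a8 (5.04). It was negative for Rxra (-1.02), Cyp2b9 (-1.66), Cyp2b13 (-3.27), Cyp1a2 (-2.16), Abcc4 (-5.48), Slco1a4 (-1.21), Mki67 (-3.91), Myc (-2.31), Glul (-5.05), Alb (-1.26) and Akr1b7 (-3.05). For Cyp2c55, Abcc4, Sult3a1, Prom1 and Akr1b7 no CD-1 control array was well above background. Their CD-1 rises are known only as lower bounds, which leaves the size of these differences uncertain. Several differences in both comparisons did not pass under other scalings, as given below.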

How the results depend on the processing

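The 1900 calls in CD-1 (440 higher, 1460 lower, 1838 of at least 2-fold) varied with the settings. Leaving out 1 animal gave 928 (without control animal 3) to 2129 (without control animal 2) calls, 157 to 604 higher, 771 to 1525 lower and 928 to 2123 of at least 2-fold. Without phenobarbital animal 1, 2 or 4 there were 1177, 953 and 1075 calls. Of 112 named genes called, 65 passed whichever animal was left out. Quantile normalization gave 813 higher calls (33.7% of all calls higher, against 23.2%), normexp and quantile 3808 (1505 higher, 2303 lower, 39.5% higher), and array weights 4605 (1766 higher, 2839 lower, 38.4% higher). The filter on every array gave 274 higher calls and no filter 204. The replicate block, for numbers that do not pair the animals, gave 1160 calls (260 higher, 900 lower, 1160 of at least 2-fold). All 28 arrays in 1 fit gave 6184 (1754 higher, 4430 lower, 2877 of at least 2-fold). Chosen after seeing the data, spike-in scaling gave 915 (267 higher, 648 lower, 871 of at least 2-fold) and brightness as a covariate 756 (297 higher, 459 lower, 755 of at least 2-fold, 39.3% higher). Brightness kept 104 of the 440 higher and 450 of the 1460 lower calls, and was not fitted for the differences between experiments. Slide as a block could not be fitted, because each CD-1 group has its own slide.

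Spike-in scaling gave 2803 differences against hCAR/hPXR and 1755 against C3H mice, against 6742 and 2911, and normexp and quantile 4754 against C3H mice. With the probe chosen on the CD-1 arrays Cbfa2t3 gave 0.82 and Ncoa1 0.57, because another probe was read. Differences that reversed sign were, with quantile normalization, 2.65 (Cyp2b9), 0.39 (Gadd45b) and 1.04 (Prom1) against hCAR/hPXR and 2.17 (Cyp2b9) against C3H. With normexp and quantile they were -0.27 (Nr1i3), 0.91 (Cyp2b9) and 0.13 (Gadd45b) against hCAR/hPXR and 0.96 (Cyp2b9) against C3H. With the mean of all probes they were -0.55 (Nr1i3, hCAR/hPXR) and -1.41 (Prom1, C3H), and without the 2 end arrays 0.42 (Abcc2, hCAR/hPXR). Of the 19 panel differences against hCAR/hPXR and the 16 against C3H mice, 13 and 12 still passed with quantile normalization. Lost besides those reversed were Nr1i3, Gstm1, Slco1a4 and Mki67 (hCAR/hPXR) and Cyp2b13 (-0.06), Slco1a4 and Akr1b7 (-0.47, C3H). With normexp and quantile 13 and 13 passed. Lost were Cyp2b10, Gstm1, Slco1a4 and Mki67 (hCAR/hPXR) and Cyp2c55 (0.07) and Slco1a4 (C3H). Spike-in scaling kept 17 and 14. The cause was not tested for the other changes.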

Other observations

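Olfactory, vomeronasal and taste receptor genes, a group chosen after its values were seen, were detected more often on the CD-1 arrays than on the others, a description with no test. Of 1357 on the array, 517 (38.1%) were well above background on every CD-1 phenobarbital array and 272 (20.0%) on every CD-1 control array. In hCAR/hPXR mice the same counts were 67 (4.94%) with phenobarbital and 110 (8.11%) in controls, and in C3H mice 68 (5.01%) with phenobarbital and 70 (5.16%) in controls. Over all 20145 genes with a symbol the shares were 62.9% with phenobarbital and 52.7% in controls in CD-1, 60.9% and 60.5% in hCAR/hPXR mice, and 59.2% and 58.1% in C3H mice. In CD-1, 563 of the receptor genes were tested, 21 rose (3.73%) and 39 fell (6.93%), against 1.69% and 5.12% of all tested genes with a symbol. Of the 563, 291 were bright enough in phenobarbital animals alone and held 17 of the rises. Another 46 were so in controls alone and held 25 of the falls. These shares and the median difference of 0.50 therefore describe the tested members and no more. Over the 226 well above background on all arrays 4 rose and 14 fell, with a median of 0.26. Of 9998 genes with a symbol detected in that way, 68 rose and 464 fell. These genes are known for their expression in sensory tissue.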
